A study of Homo sapiens with 9 samples.

Results

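Sites bound by EGR1 in cells with an induced oncogene were compared, site by site, between cells without and with the glucocorticoid clobetasol. EGR1 binding had been mapped by chromatin immunoprecipitation with sequencing (ChIP-seq, antibody sc-189X) in BJ-hTERT-BRAF-V600E cells, a human fibroblast line immortalised with telomerase. In these cells doxycycline switches on the oncoprotein BRAF V600E. Members were pairs of peaks on chromosomes 1 to 22 that overlapped by at least 1 bp, each peak of the induced list taken with the clobetasol peak of nearest summit. This gave 10098 pairs, which joined 10098 of 15750 induced peaks to 10089 of 11926 clobetasol peaks on those chromosomes, out of 28625 peaks in both lists together.

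The 9 libraries fell into 3 groups of 3, each treated for 24 h. Proliferating cells received ethanol and DMSO, the vehicles. Induced cells received doxycycline at 1000 ng/mL and DMSO. Induced cells with clobetasol received doxycycline at 1000 ng/mL and clobetasol at 2 nM, and the titles of these samples name DMSO too. All groups carry the same immortalised line and transgene, and no label states if the libraries within a group were grown as separate cultures. Each deposited list pools the 3 libraries of a treated group and was called against the pooled proliferating EGR1 libraries, so both lists share their control. With 1 pool per list there is no spread between replicates, and every comparison here is a description of those pools without a test. ChIP peaks do not measure expression, so the fibroblast label was not checked against marker genes.

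EGR1 is a zinc finger transcription factor that binds GC-rich sites, often near gene starts. It is an immediate early gene: signalling from RAF through MEK to ERK switches it on within minutes through serum response factor. EGR1 in turn binds genes of its own corepressors, of growth factors and of phosphatases that dampen ERK. Clobetasol strongly activates the glucocorticoid receptor, itself a transcription factor, which switches on genes such as FKBP5, PER1 and the metallothioneins and represses inflammatory genes. A peak's width in such a list is the stretch over which the pileup of fragments exceeds the control, and its summit is the base where that excess is highest.

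The pool with clobetasol was the deeper of the pair: the factors that scale the shared control gave it 1.21 times the depth of the induced pool. The list was nevertheless the shorter one, with 12340 peaks against 16285. Peaks covered 4.85 Mb with clobetasol and 8.41 Mb without it on chromosomes 1 to 22. The lowest deposited −log10 q was 5.00 in both lists, so an absent peak means only that nothing overlapping passed that bound.

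Sequences show where paired summits sat at gene starts. The following are the 250 bases before the start of 5 genes, from RefSeq on GRCh38.p14 and written 5′ to 3′ along the gene. Capitals mark GCGNGGGCG, the core of the known EGR1 site, on either strand. GADD45B, chr19:2475877-2476126 (plus strand), NAB2, chr12:57088864-57089113 (plus strand), TGFB1, chr19:41353923-41354172 (minus strand), and ACTG1, chr17:81512800-81513049 (minus strand), are shown as examples, chosen after their values were seen, of 10 genes whose starts lay under a peak in both lists and whose windows hold a match. MT2A, chr16:56608334-56608583 (plus strand), was chosen because it had the largest gain in width among the listed genes.
GADD45B: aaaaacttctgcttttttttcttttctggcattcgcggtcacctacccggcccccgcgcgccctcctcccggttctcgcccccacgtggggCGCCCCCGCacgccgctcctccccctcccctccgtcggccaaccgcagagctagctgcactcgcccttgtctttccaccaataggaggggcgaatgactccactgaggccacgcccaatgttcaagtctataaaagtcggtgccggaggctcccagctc
NAB2: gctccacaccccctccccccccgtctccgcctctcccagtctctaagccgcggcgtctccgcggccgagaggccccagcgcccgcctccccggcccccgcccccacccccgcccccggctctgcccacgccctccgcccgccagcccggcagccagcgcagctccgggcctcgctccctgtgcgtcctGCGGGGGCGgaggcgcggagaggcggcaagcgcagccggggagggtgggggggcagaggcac
TGFB1: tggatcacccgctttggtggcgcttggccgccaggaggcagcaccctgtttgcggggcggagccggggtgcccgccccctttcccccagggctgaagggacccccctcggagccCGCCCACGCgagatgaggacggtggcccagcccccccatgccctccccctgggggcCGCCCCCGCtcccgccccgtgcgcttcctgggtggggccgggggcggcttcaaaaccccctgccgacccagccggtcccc
ACTG1: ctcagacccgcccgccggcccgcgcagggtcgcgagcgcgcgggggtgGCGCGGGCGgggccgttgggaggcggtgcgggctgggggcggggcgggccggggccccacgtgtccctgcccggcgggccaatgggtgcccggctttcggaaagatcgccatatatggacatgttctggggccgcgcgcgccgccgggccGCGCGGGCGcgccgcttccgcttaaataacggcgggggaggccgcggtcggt
MT2A: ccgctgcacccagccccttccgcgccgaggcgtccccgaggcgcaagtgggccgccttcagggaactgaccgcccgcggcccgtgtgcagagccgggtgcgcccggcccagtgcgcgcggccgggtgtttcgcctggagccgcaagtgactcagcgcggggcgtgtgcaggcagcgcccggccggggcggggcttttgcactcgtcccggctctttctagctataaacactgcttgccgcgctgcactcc

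The match in GADD45B began 159 bases before the gene start, and the paired summits lay 161 bp before it in induced cells and 159 bp before it with clobetasol. In TGFB1 the matches began 136 and 80 bases before the start and the summits lay at 119 and 123 bp before it. In ACTG1 the matches began at 202 and 52 bases before the start, with summits at 136 and 138 bp before it. At these genes the summits of the lists were thus 2 to 4 bp apart. The NAB2 match began 62 bases before the start, whereas both NAB2 summits lay on the same base, 113 bp inside the gene. Over all 10 genes the distance from the summit of the peak over the start to the middle of the nearest match ran from 6 bp to 675 bp in induced cells, with a median of 84 bp. With clobetasol it ran from 4 bp at GADD45B to 670 bp at EGR1, with a median of 67 bp, so a summit close to a match was not the rule. The MT2A window held no match. Gene starts on hg19 and on GRCh38.p14 come from different sources and may differ by some bases. The letters were found in 3313 of 35116 RefSeq windows of 250 bases before to 50 after a start (9.43%), and in 13 of 49 listed genes with 1 usable window (26.5%). The palindromic consensus of the glucocorticoid response element was found in 137 of those windows (0.39%) and in none of the 49. A match of letters is a description of the window only.

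Most sites were narrower with clobetasol. The median width of a paired peak was 453 bp (quartiles 339 and 703) in induced cells and 353 bp (287 and 475) with clobetasol. The width ratio, clobetasol over induced, had a median of 0.843 (quartiles 0.667 and 0.973) and ran from 0.111 to 11.9. The clobetasol peak was the narrower of the pair at 8019 sites (79.4%), the wider at 2047 (20.3%) and equal at 32 (0.317%). Past 1.5-fold, 2524 sites were narrower (25.0%) and 161 wider (1.59%). Wide peaks became rare: the induced peak spanned at least 1 kb in 1106 pairs, and the clobetasol peak did in 264 pairs. Of those 1106, 233 (21.1%) had a clobetasol partner of that size, while those 233 made up 88.3% of the 264.

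**Figure D1:**
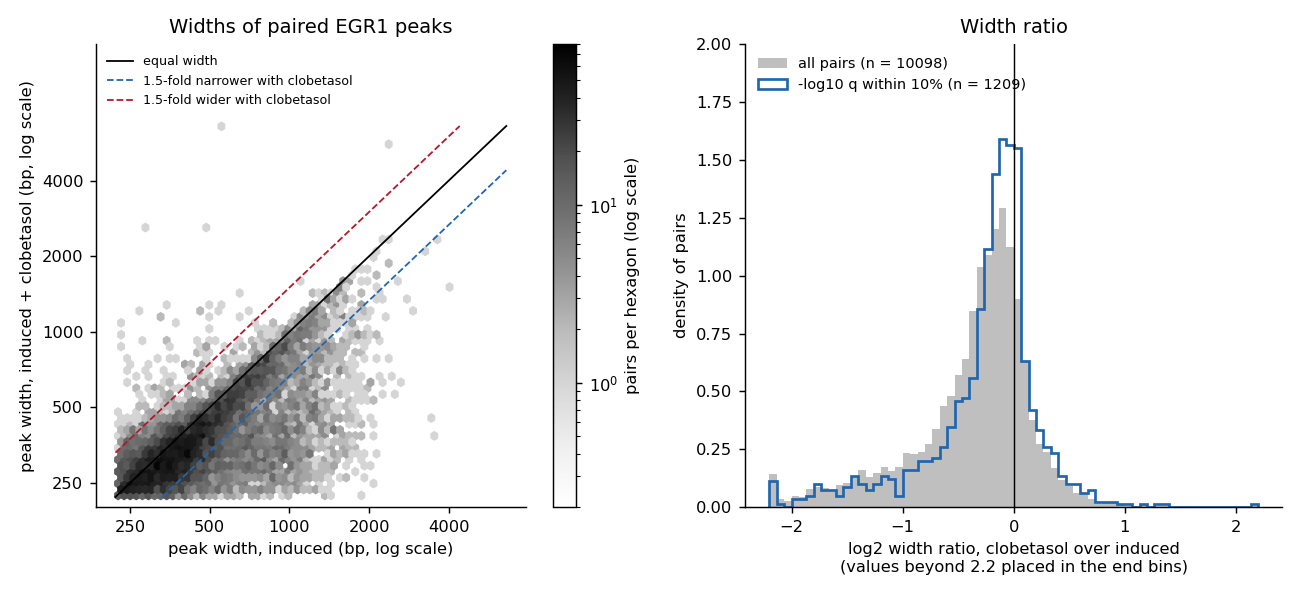
Left, width of each paired peak in the induced list (x axis, bp, log scale) against its clobetasol partner (y axis, bp, log scale), with hexagons shaded by the number of pairs on a log scale; right, density of pairs by log2 width ratio for all 10098 pairs (grey) and for the 1209 pairs whose −log10 q differed by at most 10% (blue line). Most pairs lie below the line of equal width, and a band of induced peaks near 1 kb meets clobetasol peaks of 250 to 500 bp.

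Narrowing was mostly a loss at the flanks of a peak that kept its place. The clobetasol peak lay inside the induced peak at both edges at 5729 sites (56.7%), and the reverse held at 885 (8.76%). At 3480 sites (34.5%) 1 edge lay inside and the other outside. The median edge lay 28 bp further in on either side. Where a peak narrowed by 1.5-fold or more, stayed in 1 part and lay inside its partner, a median of 83.1% of the lost width came from the edge that lost more (1899 sites, quartiles 68.7% and 92.8%). At 1083 of these 1899 sites (57.0%) more than 80% of the loss was at 1 edge. Among sites that narrowed by less and lay inside their partner, in any number of parts, this held at 1302 of 3638 (35.8%). Large losses of width were thus more often uneven between the edges than small ones.

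How the loss varied with width depends on which list sets the class. By induced width, the median ratio was 1.03 below 300 bp (1540 pairs), 0.860 from 300 to under 500 bp (4251), 0.748 from 500 bp to under 1 kb (3201) and 0.483 at 1 kb or more (1106). By clobetasol width the order was the opposite, with 0.794 below 300 bp (3056 pairs) and 0.930 at 1 kb or more (264). By the geometric mean of both widths it was 0.949 below 300 bp (1787), 0.835 (4979), 0.765 (2910) and 0.796 at 1 kb or more (422). A peak under 300 bp could not narrow much, because the narrowest listed peaks had 225 and 223 bp, and 0 of 1540 such pairs passed 1.5-fold. Among induced peaks of 1 kb or more, 765 (69.2%) narrowed by 1.5-fold and 566 (51.2%) to 0.5 of their width or less.

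Width moved together with signal strength. At 2524 narrower sites the summit pileup, the number of fragments over the summit base, had a median of 81 fragments in the induced pool and 71 in the deeper clobetasol pool. Their depth-scaled pileup ratio was 0.742, against 0.816 at the 7413 sites within 1.5-fold and 0.918 at the 161 wider ones. Where the −log10 q of both peaks differed by at most 10%, the median width ratio was 0.903 (1209 pairs, 394 bp against 342 bp). Where raw fragments, without depth scaling, differed by at most 10%, it was 0.847 (4086 pairs, 455 bp against 356.5 bp), close to the 0.843 of all pairs. Where depth-scaled pileups differed by at most 10%, it was 0.946 (2090 pairs, 358 bp against 327 bp). Where the −log10 q was higher with clobetasol it was 0.981 (2270 pairs), and where it was lower 0.808 (7828 pairs). Sites of high control level, over 5 times the lowest of either list, made up 429 of the 2524 narrower pairs and 2574 of all 10098 (25.5%). The narrowing was thus smaller at pairs matched on −log10 q or on depth-scaled pileup and of the same size at pairs matched on raw fragments. The part of signal strength in it was not tested.

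The largest losses of width were taken among 4475 pairs in which each peak reached a −log10 q of 10 or more, with a control level at most 5 times the lowest of each list. Positions are on hg19, counted from 1. At chr15:90355006-90358463 a peak of 3458 bp with 194 fragments at its summit met a clobetasol peak of 385 bp with 124 fragments, a width ratio of 0.111. The 2 summits were 8 bp apart, and a second clobetasol peak lay at the far end of the same induced peak. At chr22:33198083-33201485 a peak of 3403 bp met one of 462 bp with a summit 650 bp away. Raw fragments there were 50 and 52, a depth-scaled ratio of 0.856. At chr7:48127868-48129963 the widths were 2096 and 329 bp, and at chr2:86667847-86669489 they were 1643 and 263 bp. Both of these were divided too, and the width is that of the part with the nearest summit, 9 and 8 bp away, beside a further part of 351 bp and 576 bp.

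Gains of width were few. In the same set, chr10:123687716-123688203 went from 488 to 1270 bp, with 76 and 87 fragments, under a clobetasol peak that also covered a neighbouring induced peak. At chr15:33535179-33535477 the widths were 299 and 757 bp, with 47 and 49 fragments, and at chr11:57224742-57225005 they were 264 and 602 bp, with 49 and 53. Fragments were thus about equal at these sites before depth was taken into account, with a depth-scaled ratio of 0.942, 0.858 and 0.890. The largest gains, to 1104 bp from 232 and from 372 bp, belonged to 2 neighbouring induced peaks on chromosome 8 under the same clobetasol peak. Over all 161 wider sites, 56 (34.8%) had a pileup ratio above 1 and 9 were higher by 1.5-fold. At 5 of those 9, MT2A and MAP3K4 among them, the clobetasol peak also covered a neighbouring induced peak and its summit lay 499 to 2129 bp away. At these 5 the fragments of different places are set side by side and no gain in height at the induced summit is shown. At the rest of the 9 the summits lay 3 to 24 bp apart, with pileup ratios of 1.53 to 2.47. The exact binomial 95% interval, of counting error only, lay above 1 at those on chromosomes 1 and 2 and included 1 at those on chromosomes 3 and 7.

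Summits of a pair lay close together. The median distance between the paired summits was 10 bp (quartiles 4 and 23), and 5063 pairs (50.1%) lay within 10 bp. Shifts had no preferred direction: the clobetasol summit lay at the lower coordinate at 4950 sites (49.0%), at the higher at 4779 (47.3%) and on the same base at 369 (3.65%). Summits were over 50 bp apart at 908 sites (8.99%) and over 100 bp apart at 391 (3.87%). The induced summit fell outside the clobetasol peak at 39 of all pairs (0.386%) and at 36 of the 2524 narrower ones (1.43%). Pairs were formed by overlap and nearest summit, so the closeness of summits is in part set by how they were chosen. The summit also lay nearer to the middle of its peak with clobetasol, at a median of 17.2% of the distance from middle to edge against 20.2%.

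**Figure D2:**
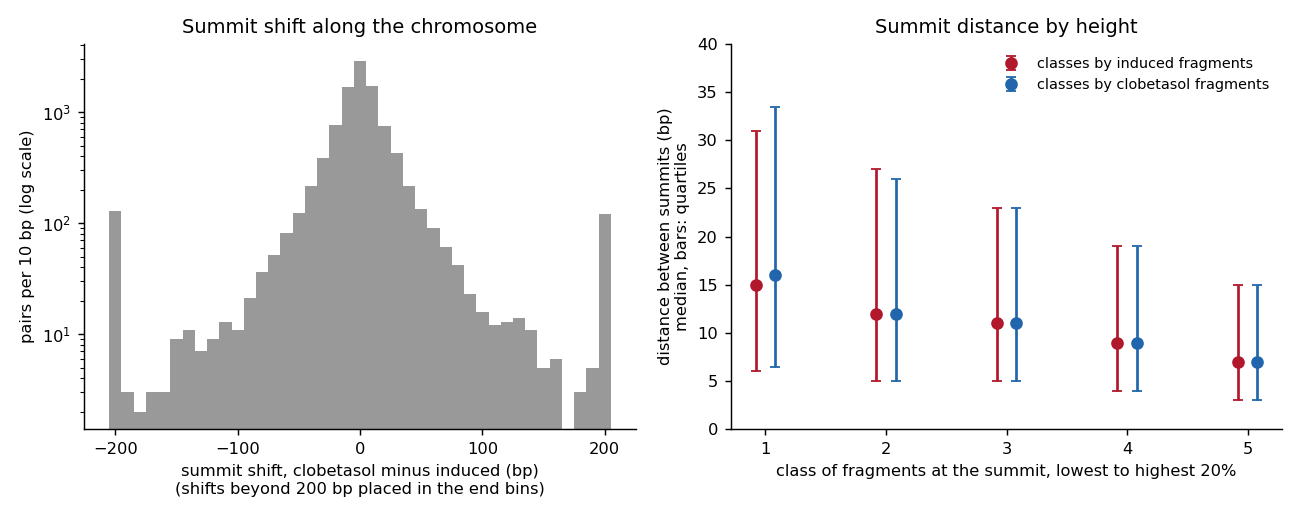
Left, number of pairs (log scale) by the shift of the summit along the chromosome in bp, clobetasol minus induced, with shifts beyond 200 bp in the end bins; right, median distance between summits in bp (bars, quartiles) in 5 classes of fragments at the summit, set by either list. The shifts are symmetric about 0, and the median distance falls from 15 or 16 bp in the lowest class to 7 bp in the highest.

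Summits of strong peaks lay closer together. Over 5 classes of induced fragments the median distance was 15, 12, 11, 9 and 7 bp from the lowest to the highest class. By clobetasol fragments it was 16, 12, 11, 9 and 7 bp, the same order whichever list set the classes. Sites with summits over 100 bp apart were wide and of modest height, with medians of 816 bp and 68 fragments in induced cells and 628 bp and 65 fragments with clobetasol. Their pileup ratio of 0.792 was close to the 0.798 of all other pairs. Of these 391 sites, 129 (33.0%) were at least 1 kb wide in the induced list.

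The largest shifts in the restricted set occurred within broad peaks that kept both ends. At chr4:39814237-39816594 the peak spanned 2358 bp without and 2272 bp with clobetasol, and the summit moved 1375 bp to the higher coordinate, with 45 and 57 fragments. At chr19:18527487-18529055 the widths were 1569 and 1476 bp and the summit moved 1174 bp to the lower coordinate. At chr9:96928146-96929387 they were 1242 and 1209 bp, with a move of 938 bp to the higher. In these 3 peaks the highest base changed ends while the span stayed. By contrast, chr12:12714290-12716035 shrank from 1746 to 377 bp and its summit moved 1077 bp. At chr17:44269833-44271071 the widths were 1239 and 793 bp and the move was 948 bp.

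Induced peaks broke into parts far more often than they joined. An induced peak was overlapped by 2 or more clobetasol peaks at 234 sites (2.32%), 231 with 2 parts and 3 with 3. A clobetasol peak lay over 2 induced peaks at 10 of 10325 sites (0.0969%). The divided peaks had a median width of 1278 bp, and 198 of 234 (84.6%) spanned at least 1 kb. That is 198 of 1106 such peaks in the induced list (17.9%), compared with 6 of 259 distinct clobetasol peaks of that width divided in the induced list (2.32%). Per wide peak, division was therefore more frequent in the direction of clobetasol.

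**Figure D3:**
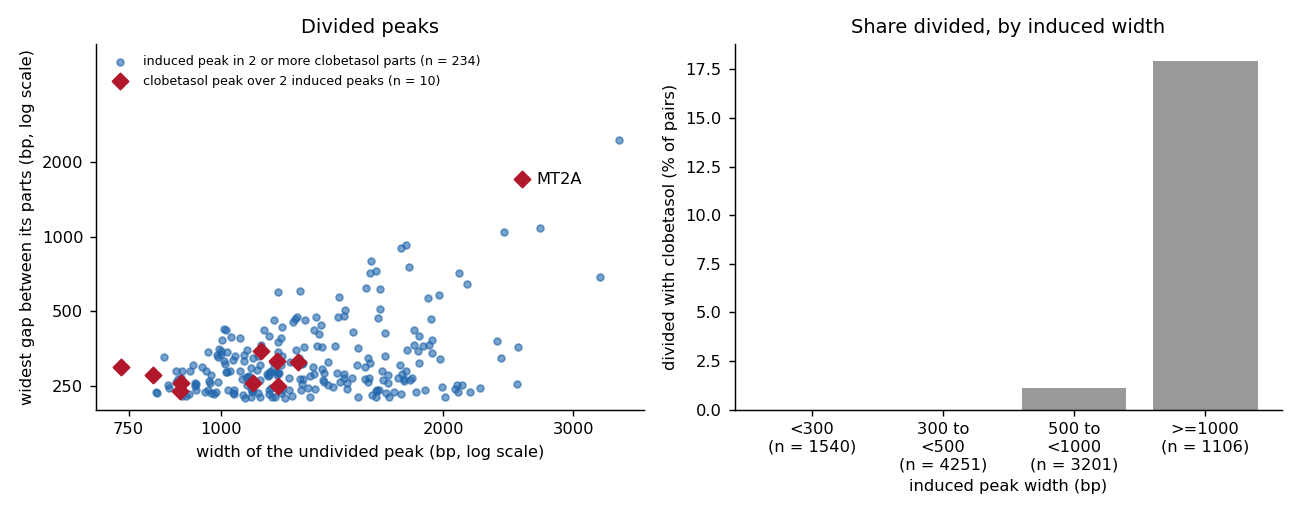
Left, width of each undivided peak (bp, log scale) against the widest gap between its parts in the other list (bp, log scale), for 234 induced peaks divided with clobetasol (blue circles) and 10 clobetasol peaks over 2 induced peaks (red diamonds); right, percent of pairs whose induced peak was divided, by induced width class. Division is concentrated in peaks of 1 kb or more, and the MT2A peak has a gap of 1711 bp.

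The gaps that opened were short. The median gap was 284 bp (range 224 to 2451), where the smallest gap between neighbours anywhere was 226 bp in the induced list and 224 bp in the clobetasol list. The parts together covered a median of 65.6% of the induced width, with a median of 461 bp for the largest part and 306.5 bp for the smallest. Parts were unequal: the lower had a median of 0.664 times the fragments of the higher. At 204 of 231 sites with 2 parts (88.3%) the induced summit was nearer to the higher part. A divided peak thus mostly had a main part near the earlier summit and a lesser one, with a median of 678 bp between the summits of the parts.

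In the restricted set, 58 peaks were divided and 2 were joined. At chr1:245026193-245028097 a peak of 1905 bp with 82 fragments became 3 parts of 298, 381 and 313 bp with 67, 64 and 62 fragments. At chr17:74378486-74381750 a peak of 3265 bp left parts of 302 and 2060 bp, with 73 and 184 fragments, across a gap of 688 bp. At chr9:115095182-115096281 a peak of 1100 bp left parts of 314 and 446 bp, with 115 and 163 fragments. These examples range from parts of nearly equal height to a main part with a small satellite. The joined peaks were the one on chromosome 8 and chr1:2063560-2064367, where a clobetasol peak of 808 bp bridged induced peaks of 444 and 1097 bp.

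At the summits themselves the clobetasol pool was lower. The depth-scaled pileup ratio had a median of 0.797 (quartiles 0.706 and 0.906). It was lower by 1.5-fold or more at 1631 sites (16.2%), higher by 1.5-fold at 25 (0.248%) and above 1 at 1227 (12.2%). The exact binomial 95% interval lay below 1 at 3634 sites (36.0%) and above 1 at 55 (0.545%). Such intervals cover counting error in the pools only. Without the depth scaling the median ratio was 0.968, so the size of this difference rests on the depth ratio.

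Known loci were then examined through 104 genes in 10 lists, with peaks assigned where a summit lay within 5 kb of a gene start. The hg19 gene starts were taken from general knowledge of that build and not from a deposited annotation. Of the 104 genes, 71 had at least 1 pair, 21 had no peak in either list, 11 had an induced peak only and 1, KLF9, had a clobetasol peak only. The KLF9 count follows from the edge of the window, since an induced KLF9 peak with its summit at −5079 bp lay just outside it. The nearest paired summit lay within 500 bp of the start at 52 of the 71 genes. The 117 pairs at these genes had a median width ratio of 0.877 and a median pileup ratio of 0.795, beside 0.843 and 0.797 over all pairs. Past 1.5-fold, 28 of 117 pairs were narrower (23.9%, against 25.0% of all pairs) and 4 were wider (against 1.59%). As a whole the listed genes were therefore close to the background of all sites in narrowing and in pileup.

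Some listed genes had a peak over their start in the induced list alone, and none in the clobetasol list alone. Over all autosomal sites, 35.9% of induced peaks had no pair and 13.4% of clobetasol peaks overlapped no induced peak. Of the peaks near listed genes, 28 of 145 induced ones (19.3%) and 4 of 122 clobetasol ones (3.28%) lacked a partner, so unpaired peaks were no more frequent there than elsewhere. The start lay under an induced peak at 59 of 104 genes and under a clobetasol peak at 48, all of which were among the 59. The 11 genes without cover in the clobetasol list were SPRED2, DUSP6, ERRFI1, JUND, SRF, CDKN2A, CDKN2B, MDM2, SNAI1, ACTB and TPM1. They fell into kinds: at DUSP6, ERRFI1, JUND and ACTB a narrowed peak stayed close by, whereas at CDKN2A, CDKN2B, MDM2, SNAI1 and TPM1 no listed peak remained within the 5 kb window. At SPRED2 and SRF the start peak had no partner, but another pair lay in the window. Binding below the bound of the list, or no stronger than in the proliferating control, would not be seen at any of these genes.

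**Figure D4:**
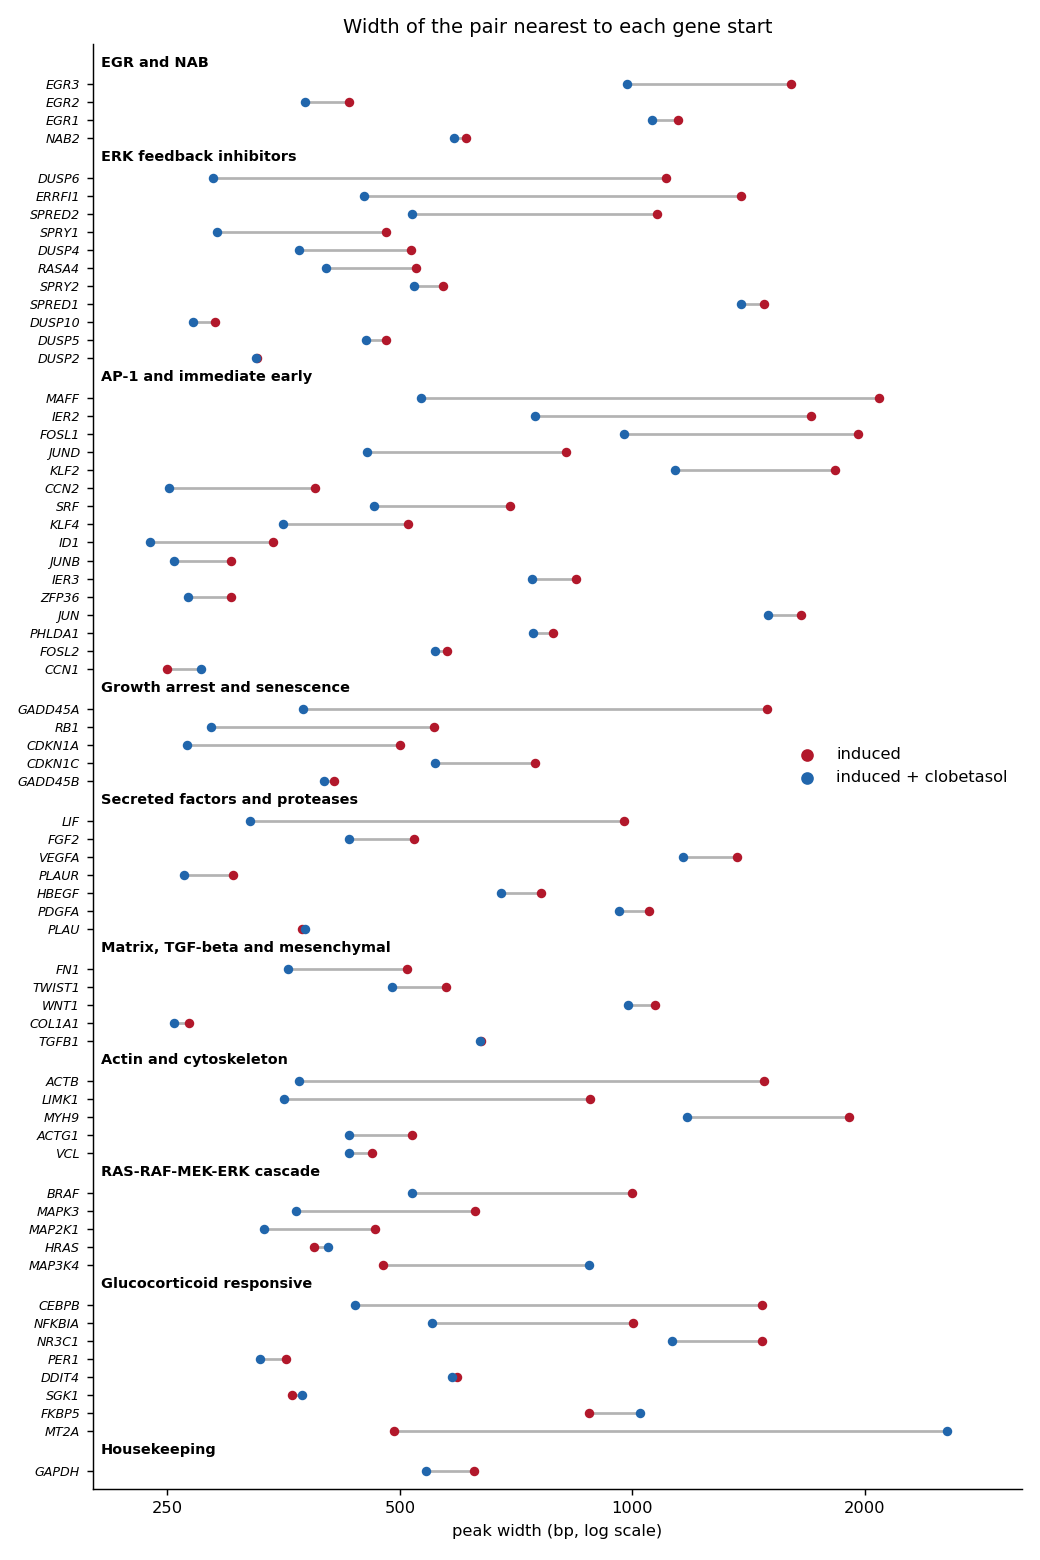
Width (bp, log scale) of the peak pair nearest to the start of 67 listed genes, in the induced list (red) and in the clobetasol list (blue), grouped by gene list and ordered within a list by width ratio. Most lines run from red on the right to blue on the left, with GADD45A and ACTB among the longest, and MT2A, MAP3K4 and FKBP5 run the other way.

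The EGR and NAB list holds EGR1 with its relatives and the corepressors that restrain it. It had 11 pairs at 4 of 5 genes, with a median width ratio of 0.926. Past 1.5-fold, 2 of them were narrower (18.2%, against 25.0% of all pairs). Each EGR1 peak kept a partner. The peak over its start went from 1146 to 1061 bp with 195 and 170 fragments. Its depth-scaled ratio was 0.718 (95% interval 0.581 to 0.886). An upstream one, 689 bp before the start, went from 465 to 450 bp with 331 and 297 fragments, a ratio of 0.739 (0.629 to 0.867). A weaker EGR1 peak further upstream narrowed from 423 to 267 bp with 48 and 49 fragments, a width ratio of 0.631. Its summit moved 98 bp. Its clobetasol −log10 q was 6.09, close to the lowest listed value of 5.00. A broad EGR1 peak some 5 kb downstream kept its width, 2243 and 2359 bp, while its summit moved 356 bp. NAB2, a corepressor of EGR1, kept 5 pairs, the one at its start with 609 and 588 bp and 526 and 549 fragments. The upstream EGR3 peak of 1604 bp was divided into 983 and 366 bp, and 2 induced peaks near EGR2 had no clobetasol partner.

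Inhibitors that feed back on ERK signalling were narrower without exception. All 16 pairs at 11 of 13 genes had a width ratio below 1, against 79.4% of all pairs, with a median of 0.811. Past 1.5-fold, 4 were narrower (25.0%, the same share as over all pairs). Their median pileup ratio was 0.713, against 0.797 over all pairs. A pileup lower by 1.5-fold was seen at 4 of 16, against 16.2% of all pairs. DUSP6, a phosphatase that acts on ERK, had a peak of 1107 bp that shrank to 286 bp while its summit moved 15 bp. That summit had 58 and 57 fragments, a depth-scaled ratio of 0.809. The clobetasol peak there had a −log10 q of 5.70, close to the lowest listed value of 5.00. ERRFI1, an inhibitor of the EGF receptor, went from 1384 to 449 bp with 91 and 76 fragments. SPRY1, a Sprouty inhibitor of receptor signalling, went from 480 to 290 bp and from 104 to 65 fragments, a depth-scaled ratio of 0.514 (95% interval 0.371 to 0.708). Its relative SPRY2 kept a strong peak, 569 and 521 bp with 513 and 506 fragments. Both pools also had high counts at RASA4, a RAS GTPase activator with near-identical copies in the genome, with 784 and 722 fragments, which may be shared between the copies. The largest summit distance in this list was 49 bp, at SPRED2, and DUSP2 had the largest width ratio, 0.997. The DUSP1 peak, 716 bp inside the gene with 46 fragments, was listed in induced cells only. A clobetasol peak of 2029 bp with 45 fragments had no induced partner. Its summit, 5898 bp downstream of the DUSP1 start, lay outside the window.

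The AP-1 and immediate early list gave 31 pairs at 16 of 22 genes, with a median width ratio of 0.877. Past 1.5-fold, 7 were narrower (22.6%, against 25.0% of all pairs) and none wider (against 1.59%). MAFF, a small Maf factor, had a peak of 2086 bp that became parts of 532 and 346 bp. IER2, an immediate early gene of unclear function, went from 1706 to 747 bp and FOSL1, an AP-1 subunit, from 1959 to 975 bp, with fragments of 84 and 90 at the FOSL1 summit. JUN kept 1654 and 1498 bp. The largest summit shift, 59 bp, was at KLF2, a Krüppel-like factor. Pairs with more fragments were present too. IER2 had a peak nearly 4 kb downstream with 269 and 367 fragments, a ratio of 1.12 (0.957 to 1.32). ZFP36, which destabilises inflammatory mRNAs, had the largest width ratio of the list, 1.22, with 164 and 214 fragments. Both sites had a high control level, 15.6 and 9.87 times the lowest in the induced list. SRF, the factor that switches on EGR1 itself, lost the peak at its start, which had 67 fragments in the induced pool, and kept one 3130 bp inside.

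Growth arrest genes showed the largest share of narrowing among the 10 lists, though over few pairs. Of 10 pairs at 6 of 11 genes, 5 were narrower by 1.5-fold (50%, against 25.0% of all pairs), with a median ratio of 0.632. A further 4 genes had an induced peak only. Counted by peaks, the list had 15 induced peaks and 10 pairs, where 35.9% of all induced peaks lacked a pair. GADD45A, a stress response gene, went from 1494 to 374 bp while its summit moved 7 bp. That summit had 140 and 137 fragments, a depth-scaled ratio of 0.806. CDKN1A, which encodes the cell cycle inhibitor p21, went from 500 to 265 bp at a site 4119 bp inside, with 259 and 251 fragments. RB1, the retinoblastoma tumour suppressor gene, went from 553 to 285 bp at its start. GADD45B kept its main peak at 411 and 399 bp with 364 and 395 fragments, and a downstream GADD45B pair had the largest summit distance of the list, 46 bp. The largest width ratio, 1.11, was at an upstream GADD45A pair of 314 and 349 bp. Genes with an induced peak only included CDKN2A, CDKN2B and MDM2, at modest height: the CDKN2A peaks had 50 and 53 fragments, CDKN2B 48 and MDM2 47. Such heights are below the median of 86 fragments at paired sites.

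Among secreted factors and proteases, 7 of 16 genes had pairs, 11 in all, 2 of them narrower by 1.5-fold (18.2%, against 25.0% of all pairs). LIF, an interleukin 6 family cytokine, had a peak at its start that went from 975 to 320 bp with 49 and 58 fragments, while its upstream site had 318 and 217 fragments, a ratio of 0.562 (0.470 to 0.670). At HBEGF, a ligand of the EGF receptor, the width was 762 and 675 bp, with 75 and 54 fragments. The summit moved 404 bp, from 82 bp before to 322 bp after the start. The clobetasol peak there had a −log10 q of 5.39, close to the lowest listed value of 5.00. VEGFA, the angiogenic growth factor, went against the trend in height at 1 site. There, 1333 bp inside the gene, the peak narrowed from 670 to 334 bp. It held 130 fragments in the induced pool and 199 with clobetasol, for a depth-scaled ratio of 1.26 (1.01 to 1.58). The control level of this peak was high, 9.95 times the lowest in the induced list. PLAU, the urokinase protease, had the largest width ratio, 1.01.

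Matrix and mesenchymal genes gave 8 pairs at 6 of 8 genes, with a median ratio of 0.940. Past 1.5-fold, 1 of them was narrower (12.5%, against 25.0% of all pairs). The TGFB1 peak at the start kept 637 and 635 bp with 302 and 309 fragments, and a TGFB1 peak 2417 bp inside went from 974 to 331 bp. WNT1 had the lowest pileup ratio of all listed pairs, 0.404 (0.289 to 0.560), from 116 to 57 fragments. Its width stayed at 1069 and 988 bp and its summit moved 246 bp, in a clobetasol peak of −log10 q 6.13. SNAI1, a driver of mesenchymal change, had the highest −log10 q, 46.7, of the induced peaks near listed genes that had no partner, for a peak of 911 bp over its start with 130 fragments. THBS1, a matricellular protein gene, had an induced peak 229 bp before its start with 172 fragments and no partner, at a control level 12.7 times the lowest of the list. A site about 5.5 kb downstream of the SNAI1 start stayed paired, with 148 and 103 fragments.

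Actin and cytoskeleton genes had 7 pairs at 5 of 6 genes, all with a width ratio below 1, against 79.4% of all pairs. Of these few pairs, 3 were narrower by 1.5-fold (42.9%, against 25.0% of all pairs). ACTB had the lowest width ratio of all listed pairs, 0.250, from 1479 to 370 bp, with 109 and 111 fragments and summits 2 bp apart. LIMK1, a kinase that controls actin turnover, went from 882 to 354 bp and from 91 to 61 fragments. VCL, which links actin to adhesions, was the least narrowed, with 460 and 430 bp, and ACTG1 had the largest shift, 222 bp at an upstream peak. The housekeeping gene GAPDH had 624 and 541 bp with 158 and 170 fragments. Depth-scaled ratios were 0.838 at ACTB and 0.886 at GAPDH. Narrowing around a summit that kept its place was therefore also found at genes that most cells express.

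Genes of the RAS, RAF, MEK and ERK cascade gave 8 pairs at 7 of 11 genes. Past 1.5-fold, 2 were narrower (25.0%, the same share as over all pairs) and 2 wider (against 1.59%). Both wider pairs belong to MAP3K4, a stress kinase, where induced peaks of 476 bp (98 fragments) and 484 bp (35 fragments) lay 238 bp apart and a clobetasol peak of 879 bp with 91 fragments spanned both. Its summit lay 5 bp from that of the first, where the pileup ratio was 0.764 (0.568 to 1.03). BRAF itself, whose mutant form drives this system, went from 999 to 518 bp and from 136 to 100 fragments. The peak was assigned to the native BRAF gene by position, and whether transgene sequence added reads was not tested. MAPK3, which encodes an ERK kinase, went from 626 to 367 bp.

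Glucocorticoid responsive genes stood apart in single sites more than as a list. They had 14 pairs at 8 of 11 genes, with a median width ratio of 0.983 and a median pileup ratio of 0.832. Past 1.5-fold, 2 were narrower (14.3%, against 25.0% of all pairs) and 2 wider (against 1.59%). Both wider pairs were at MT2A, a metallothionein strongly activated by glucocorticoids. Induced cells had a peak of 492 bp over the MT2A start with 46 fragments and one of 284 bp with 107 fragments, 1711 bp further on. With clobetasol a peak of 2557 bp covered both and the stretch between, with 157 fragments at a summit 1893 bp inside. An upstream MT2A peak kept its width, with 392 and 395 bp. It had 136 and 139 fragments, a depth-scaled ratio of 0.841 (0.659 to 1.07). The pileup ratio was 1.21 (0.939 to 1.56) at the downstream summit, where the control level was 5.70 times the lowest in the induced list. The ratio of 2.81 for the pair at the start sets the fragments of different summits side by side.

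FKBP5 and KLF9, both textbook glucocorticoid receptor targets, had peaks that were absent from the induced list. Clobetasol peaks without a partner lay within 5 kb of 4 listed genes in all, 4 of 122 peaks against 13.4% of all clobetasol peaks, the others being COL1A1, with 71 fragments at −3975 bp from the start, and LIMK1, with 60 fragments at −4469 bp. FKBP5, a cochaperone of the receptor, had a clobetasol peak 620 bp inside the gene with 41 fragments. Its upstream pair went from 878 to 1023 bp and from 159 to 229 fragments, a ratio of 1.19 (0.964 to 1.46). The control level of that pair was 6.04 times the lowest in the induced list. KLF9, a Krüppel-like factor, had a clobetasol peak 1104 bp inside the gene with 48 fragments. Its upstream induced peak of 2074 bp with 207 fragments was divided into parts of 926 bp with 99 fragments and 641 bp with 283. At both genes a site inside the gene was listed with clobetasol alone while an upstream site was listed in both. PER1, a clock gene, kept 4 pairs at width ratios of 0.902 to 0.993, and SGK1, a kinase, kept 362 and 373 bp. Their summits were lower, with depth-scaled pileup ratios of 0.690 to 0.862 at PER1 and 0.751 (0.609 to 0.926) at SGK1.

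Other genes of the list were narrower. CEBPB, a factor that cooperates with the receptor, had a peak of 1470 bp with 238 fragments that became parts of 437 bp with 173 fragments and 477 bp with 207. NFKBIA, the inhibitor of NF-kappaB, went from 1001 to 550 bp and from 85 to 67 fragments. At NR3C1, the receptor's own gene, the width went from 1473 to 1127 bp and the fragments from 202 to 149, for a ratio of 0.607 (0.488 to 0.754). The list thus joined sites that widened with sites that lost width and height.

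**Figure D5:**
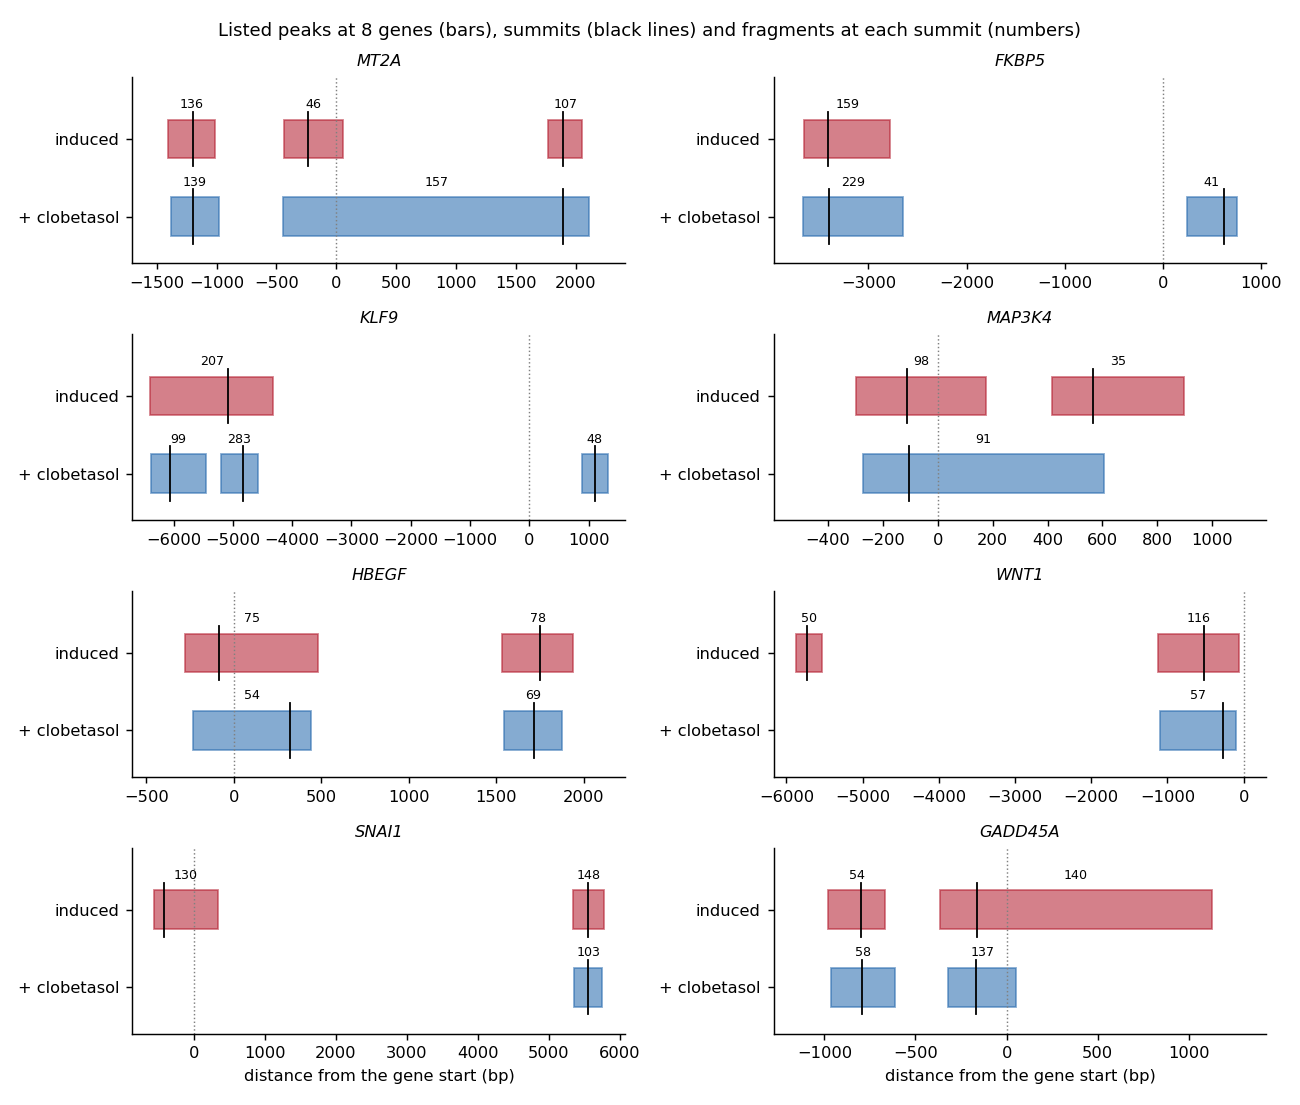
Listed peaks near 8 genes, plotted by distance from the gene start in bp along the gene, for induced cells (red bars) and induced cells with clobetasol (blue bars). Black lines are summits with the fragments over them, and dotted lines are gene starts. The MT2A clobetasol peak spans 2557 bp, the HBEGF summit crosses the gene start, and the SNAI1 peak at the start is in the induced list only. The HBEGF clobetasol peak at the start had a −log10 q of 5.39, close to the lowest listed value.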

How the data were processed

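EGR1 ChIP-seq of 9 libraries in 3 groups was used as 2 deposited peak lists. Per the submitters' processing notes, reads were handled with MACS2 2.1.1.20160309, SAMtools 1.3.1, BWA, FastQC 0.11.5, cutadapt 1.15 and bcl2fastq, on hg19; the roles of these tools and their settings were not given in the sources used here. By the names of the peaks, the authors pooled the 3 libraries of a treated group against the 3 pooled proliferating ones. Per the labels, proliferating replicates 2 and 3 carry the same library sample name, so whether that pool held 3 distinct samples is not settled here. Each row of the deposited lists gives a score, a fold (a ratio of treated to control signal at the summit), a −log10 p and a −log10 q; folds and q values of single peaks are the authors'.

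Widths and summits were read from the lists. Fragments were solved from the deposited fold (treated plus 1 over control plus 1) and the Poisson −log10 p, and lay within 0.05 of a whole number at 99.6% of induced and 99.5% of clobetasol peaks. The steps of the control level gave the depth ratio of 1.21; absolute depth is unknown. Intervals of pileup ratios are exact (Clopper-Pearson) 95% binomial intervals and cover counting error only. A site was called high-control where its control level was over 5 times the lowest of its list. That control is EGR1 ChIP of proliferating cells, so the bound does not tell repeats from sites bound before induction. The start peaks of NAB2 and TGFB1 passed it, at 24.7 and 17.8 times the lowest in the induced list.

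The members and lists were chosen with earlier results of these data known. Sites named by position were the 5 with the smallest width ratio, the largest width ratio and the largest summit distance. The 3 divided peaks with the most parts were named too. All were taken within a −log10 q of at least 10 and without high-control sites. In each gene list the genes with the smallest and largest width ratio and the largest summit distance are named; further genes were named after their values were seen. Some genes of the lists are counted but not reported here by name. The hg19 starts of the 104 genes were entered from general knowledge: all 104 symbols are on the same chromosome in RefSeq's GRCh38.p14 table, and 91 have a span within 10% of it. Pairing and solving were tested on simulated lists. Python 3.11.15, pandas 2.3.3, NumPy 2.4.6, SciPy 1.17.1 and Matplotlib 3.10.9 were used. Alternatives changed the overlap, the −log10 q bound, the pairing, high-control sites, matching on strength, the depth ratio and the gene window. Peaks outside chromosomes 1 to 22 were left out of the pairs.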

Additional observations from a re-analysis of the deposited data

Results flagged for a closer look

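Sites outside chromosomes 1 to 22 were not among the pairs described, yet both lists hold pairs there. Chromosome X had 207 pairs, with a median width ratio of 0.886, a median pileup ratio of 0.838 and a median summit distance of 15 bp. Of these, 37 (17.9%) were narrower by 1.5-fold. Contigs outside the assembled chromosomes had 87 pairs, with a median width ratio of 0.968 and a median pileup ratio of 0.934. Their median summit distance was 5 bp, and 16 (18.4%) were narrower by 1.5-fold.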

How the results depend on the processing

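Of 40 values recomputed for 9 results, 22 stayed within the 95% interval of the reported value or, for counts, within 1.5 times of it, 18 did not, and 0 changed direction. With each peak at a −log10 q of 10 or more, the median width ratio was 0.850, 22.6% of pairs were narrower by 1.5-fold, the median summit distance was 9 bp, 2.63% of summits were over 100 bp apart, 108 induced peaks were divided and 4 clobetasol peaks joined 2. Without high-control sites these were 0.828, 27.8%, 12 bp and 4.32%, with 169 divided and 6 joined. Among pairs of raw pileup within 10%, 23.5% were narrower, with a median ratio of 0.847. Both matchings on deposited strength were chosen after seeing the data: a −log10 q within 10% gave 0.903 and 17.4%, and folds within 10% gave 0.922 and 17.2%. The median pileup ratio was 0.968 without depth scaling and 0.793 with depth from the lowest control levels, the latter also added after seeing the data; the cause of these moves was not tested. Mutual pairing and a larger overlap kept all results within those bounds, though joined peaks went from 10 to 7 with the larger overlap. Gene windows of 1 and 10 kb gave 61 and 79 genes with a pair in place of 71, at median ratios of 0.852 and 0.865. No paired analysis was possible because each list pools its replicates, and for the same reason no replicate could be left out. Minimum widths of 225 and 223 bp limit how much a narrow peak can narrow.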

Other observations

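Over the 22 autosomes, the median width ratio ranged from 0.810 on chromosome 7 to 0.897 on chromosome 21, so narrowing was seen on each of them. Clobetasol peaks that overlapped no induced peak were narrow, with a median of 276 bp over 1601 peaks, and induced peaks without a pair had a median of 373 bp over 5652 peaks, against 453 bp for paired induced peaks.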
